A study of Homo sapiens with 8 samples.

Results

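Transcripts of 9 genes for platelet granule and secreted proteins are described here, namely PF4, PPBP, THBS1, SELP, VWF, MMRN1, ANGPT1, SERPINE2 and SRGN. They were taken by gene symbol from the 19718 coding genes of the deposited table, and all 9 were found. RNA sequencing libraries were made from HEL92.1.7, an established erythroleukaemia cell line labelled as secondary acute myeloid leukaemia, and from HEL-OTX P/R, its derivative labelled persister-resistant. Each line was either left untreated or given 1000 nM OTX015 for 8 hours, with 2 biologic replicates in each of the 4 groups and 8 libraries in all. OTX015 is an inhibitor of the BET bromodomain proteins, which bind acetylated chromatin and promote transcription. How the P/R line was selected, whether it is 1 clone, and whether it had been kept in OTX015 before the untreated libraries were made is not given in the labels. Both lines share the HEL background and the same serum-containing medium. Levels are in FPKM, which corrects fragment numbers for transcript length and library size, after quantile normalization, so levels of different genes can be set side by side per length.

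Platelets are shed by megakaryocytes and carry alpha granules, which the megakaryocyte fills with proteins of its own making and with proteins taken up from plasma. On activation the granules fuse with the platelet membrane, releasing chemokines and adhesive proteins and placing P-selectin on the surface. Serglycin, a proteoglycan with long sulphated sugar chains, holds basic cargo such as platelet factor 4 inside the granule. HEL cells are a cultured leukaemia line with erythroid and megakaryocytic features, so their messenger RNA shows which granule genes are transcribed, not whether granules are made or released.

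Erythroid and megakaryocyte markers were present in all 4 groups. All 9 erythroid markers examined, the globins and glycophorins among them, were at 1 FPKM or more in every library, and so were 7 of 8 megakaryocyte markers, RAB27B being the exception. Of 8 monocyte markers, CD14, CSF1R, ITGAM, FCN1, S100A8 and S100A9 were below 1 FPKM in every library. The other 2, LYZ and CD68, were at 1 FPKM or more in every library. Of 6 lymphocyte markers, CD3D, CD3E and MS4A1 were below 1 FPKM in every library, and 1 was at 1 FPKM or more throughout. All 7 stromal markers were below 1 FPKM in every library. Of 9 endothelial markers, CLDN5 and ROBO4 were below 1 FPKM in every library, and 4 were at 1 FPKM or more throughout. Every library summed to the same total FPKM, 678133, because of the normalization, so sequencing depth is unknown.

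In untreated cells the P/R line carried more of most of these transcripts than the parental line. Of the 9 genes, 7 were tested, having reached 1 FPKM or more in 2 or more libraries. PPBP and VWF did not reach that level, and ANGPT1 did only through its untreated libraries, so these counts describe the genes and support nothing beyond that. PF4, ANGPT1, THBS1, SELP and SERPINE2 were higher in untreated P/R cells and MMRN1 and SRGN did not pass, which is 5 of 7 higher and 0 lower. Over all 11255 genes tested, 11.7% were higher and 11.9% lower in that comparison (limma, adjusted p under 0.05). Under OTX015 the P/R line was higher for PF4, SELP, THBS1, SERPINE2 and MMRN1, again 5 of 7, against 12.7% of all genes higher and 11.7% lower.

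OTX015 lowered most of the tested transcripts in both lines. In parental cells 5 of 7 fell (ANGPT1, SELP, MMRN1, THBS1 and PF4) and SERPINE2 rose, where 24.7% of all genes fell and 25.7% rose. In P/R cells 4 of 7 fell (ANGPT1, SELP, THBS1 and MMRN1) and SERPINE2 rose, where 21.8% of all genes fell and 22.5% rose. ANGPT1 was tested only through its untreated libraries, so the filter favoured its fall in both lines and these counts are a description. None of the 7 passed for the difference in response between the lines, which 0.0622% of all genes passed as less lowered or more raised in P/R cells and 0.0178% in the other direction. At an unadjusted p under 0.05, 1 of the 7 differed, ANGPT1. The 2 line comparisons and the 2 drug comparisons share libraries and are not independent. In RNA from whole cultures, fewer cells that express a gene and less of its RNA per cell cannot be told apart.

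**Figure D1:**
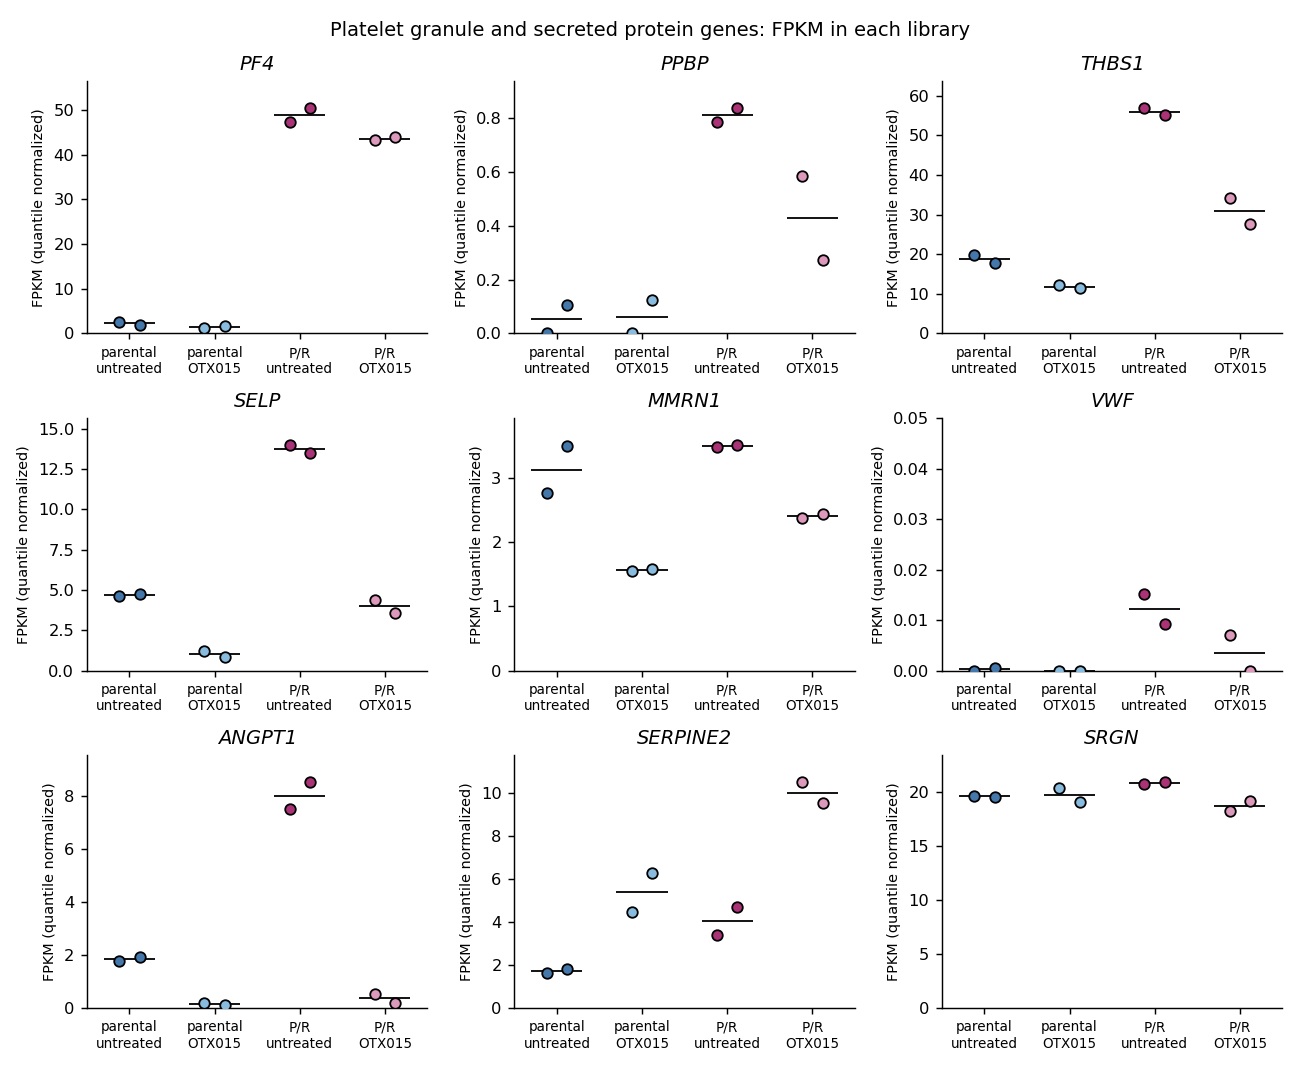
FPKM (vertical axes, each from 0 and scaled to its gene) of the 9 genes in the 4 groups, with 1 point per library and a bar at the mean of 2. PF4, THBS1, SELP and ANGPT1 are highest in untreated P/R cells, SERPINE2 is highest in P/R cells under OTX015, SRGN lies between 18.3 and 20.9 FPKM throughout, and VWF is at or near 0.

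PF4 encodes platelet factor 4, also called CXCL4, a chemokine that binds heparin. In untreated parental cells it measured 2.66 and 2.00 FPKM, and under OTX015 1.23 and 1.71 FPKM. In P/R cells it measured 47.4 and 50.4 FPKM untreated and 43.2 and 44.0 FPKM under OTX015. Every P/R library was far above every parental library, and within each line the treated libraries lay below the untreated ones without overlap. The mean rose from 2.33 ± 0.471 (SD, n = 2) to 48.9 ± 2.14 FPKM between untreated parental and P/R cells, a ratio of 21.0. On the log2(FPKM + 1) scale, which is used for all tests and understates the change of low genes, the difference was 3.91 ± 0.12 (SE, adjusted p = 1.77e-07). Under OTX015 the difference was 4.18 (adjusted p = 1.12e-07), a ratio of mean FPKM of 29.6. In both comparisons of the lines PF4 had the highest difference of the 11255 genes tested. It stood at the 50.7th percentile of the table in untreated parental cells and at the 88.6th in untreated P/R cells.

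The response of PF4 to OTX015 was small beside this difference between the lines. In parental cells it fell by 0.43 ± 0.12 on the log2 scale (adjusted p = 0.0149), from 2.33 to 1.47 FPKM. That call was lost when untreated replicate 1 or treated replicate 1 of the parental cells was left out (adjusted p = 0.101 each), with a pseudocount of 5 (0.0561), with no filter (0.0512) or with only the compared groups fitted (0.0551). For P/R cells the log2 difference was -0.16 (adjusted p = 0.305), and the difference between the 2 responses was 0.27 (adjusted p = 0.675).

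PPBP encodes the precursor of beta-thromboglobulin and of the neutrophil chemokine CXCL7, and is the gene next to PF4. It was too low to be tested. In parental cells it was listed at 0 and 0.107 FPKM untreated and at 0 and 0.126 FPKM under OTX015. The P/R libraries measured 0.784 and 0.837 FPKM untreated and 0.583 and 0.272 FPKM under OTX015. All P/R libraries lay above all parental libraries, yet all were below 1 FPKM, against 43.2 or more for PF4 in the same libraries.

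PF4 and PPBP lie in the CXC chemokine cluster of chromosome 4, where the RefSeq order is CXCL8, CXCL6, PF4V1, CXCL1, PF4, PPBP, CXCL5, CXCL3 and CXCL2. Of the 9 cluster genes 4 were tested, and PF4, CXCL3, CXCL2 and PF4V1 were higher in P/R cells in both comparisons of the lines. Over all genes tested, 11.7% were higher and 11.9% lower untreated, and 12.7% were higher and 11.7% lower under OTX015. PF4V1 reached 1 FPKM in the 4 P/R libraries only and was tested because of them, so its direction was set by the filter and the count of 4 supports nothing. PF4V1, a near-identical copy of PF4, went from 0.0551 ± 0.0169 FPKM in untreated parental cells to 1.63 ± 0.0649 in untreated P/R cells, with a log2 difference of 1.32 (adjusted p = 0.000102). Reads could be shared between PF4 and PF4V1, so the split between them is uncertain. CXCL3, a neutrophil chemokine gene, rose less, from 5.03 ± 0.223 to 7.49 ± 0.277 FPKM (log2 difference 0.49, adjusted p = 0.00602). CXCL2 was at 3.67 ± 0.377 and 7.56 ± 0.760 FPKM in the same groups (log2 difference 0.87, adjusted p = 0.00268). Under OTX015 CXCL2 still differed (adjusted p = 0.0187), a call lost without parental OTX015 replicate 2 (0.110), P/R OTX015 replicate 1 (0.0767) or P/R OTX015 replicate 2 (0.0781). CXCL1 and CXCL5, on either side of the PF4 and PPBP pair, were listed at 0 in all 8 libraries. OTX015 lowered CXCL3 in parental cells, by a log2 difference of -0.95 (adjusted p = 6.03e-05), and in P/R cells, by -0.95 (adjusted p = 8.68e-05). CXCL2 also fell in both lines, whereas PF4V1 did not pass in either line. PF4 passed in parental cells only, with the limits given above.

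**Figure D2:**
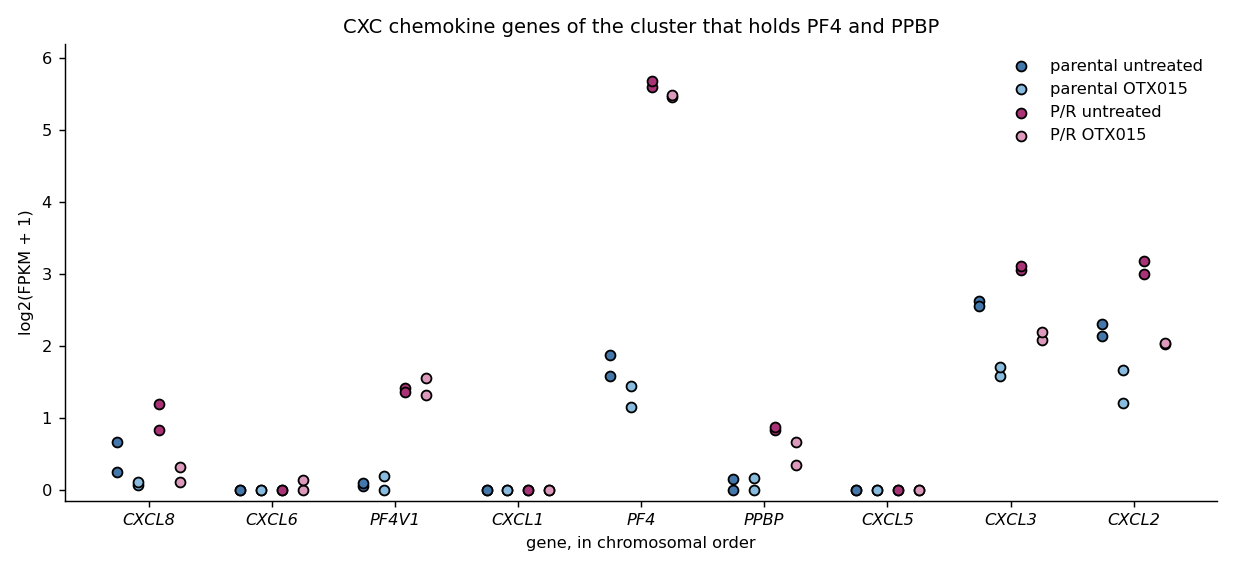
log2(FPKM + 1) of the 9 CXC chemokine genes of the cluster in chromosomal order, with 1 point per library. PF4 shows the widest gap between the lines, PF4V1 and PPBP show smaller gaps at low levels, and CXCL1 and CXCL5 are at 0 in every library.

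The promoters of PPBP and PF4V1 are shown because both genes had higher values in P/R cells and lie on either side of PF4. Each window holds the 250 bases before the RefSeq transcription start in GRCh38.p14, read 5′ to 3′ on the strand of the gene. Entries used here cover 5 of the 9 genes (PPBP, THBS1, SELP, SERPINE2 and MMRN1), with 7 windows. Capitals mark letters that match, on either strand, a GATA motif (the letters AGATAA, or their variants with a last G, AGATAG, with a first T, TGATAA, or with both, TGATAG), an ETS motif (the letters CGGAAG, or with a first A, AGGAAG), the RUNX motif TGTGGT, the E-box CACGTG or the TATA motif TATAAA. PPBP lies on the minus strand at chr4:73988191-73988440, and PF4V1 on the plus strand at chr4:73853046-73853295.
PPBP: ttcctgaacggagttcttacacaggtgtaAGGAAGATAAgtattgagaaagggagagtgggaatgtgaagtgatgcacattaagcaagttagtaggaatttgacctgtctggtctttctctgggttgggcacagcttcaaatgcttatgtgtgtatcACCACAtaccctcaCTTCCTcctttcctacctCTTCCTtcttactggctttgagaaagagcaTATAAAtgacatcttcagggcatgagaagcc
PF4V1: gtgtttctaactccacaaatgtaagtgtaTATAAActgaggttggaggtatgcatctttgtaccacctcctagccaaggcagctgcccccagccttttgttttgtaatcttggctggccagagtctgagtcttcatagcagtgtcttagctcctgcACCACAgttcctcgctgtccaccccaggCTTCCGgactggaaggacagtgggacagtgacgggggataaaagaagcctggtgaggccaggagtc
The PPBP window held 1 GATA match, 3 ETS matches, 1 RUNX match and 1 TATA match, the last with its first letter 31 bases before the start. The GATA match overlaps 1 of the ETS matches. The PF4V1 window held 1 ETS, 1 RUNX and 1 TATA match and no GATA match. Its TATA match lay farther out, with its first letter 221 bases before the start. Of 35116 windows of this length, 22.3% held a GATA motif, 40.8% an ETS motif, 11.0% the RUNX motif, 6.34% the E-box and 10.7% the TATA motif. A match describes the letters and does not show that a factor binds there.

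The adhesive proteins divided by level. THBS1, the gene of thrombospondin 1, an adhesive glycoprotein of alpha granules that also activates latent TGF-beta, measured 19.9 and 17.8 FPKM in untreated parental cells and 12.2 and 11.5 FPKM under OTX015. In P/R cells it measured 56.9 and 55.1 FPKM untreated and 34.2 and 27.6 FPKM under OTX015. None of the 4 groups overlapped, and treated P/R cells remained above untreated parental cells. Between the untreated lines the ratio was 2.97 (log2 difference 1.52 ± 0.10, adjusted p = 8.55e-06), the 36th highest of all genes tested. Under OTX015 the ratio was 2.61 (log2 difference 1.31, adjusted p = 1.98e-05). OTX015 lowered THBS1 by 0.63 in parental cells (-0.63 ± 0.10, adjusted p = 0.00071) and by 0.84 in P/R cells (-0.84 ± 0.10, adjusted p = 0.000165), and these responses differed by -0.22 (adjusted p = 0.676).

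SELP encodes P-selectin, the receptor that granules carry to the platelet surface to bind leukocytes. In parental cells it measured 4.63 and 4.78 FPKM untreated and 1.199 and 0.839 FPKM under OTX015. The P/R libraries measured 13.98 and 13.49 FPKM untreated and 4.39 and 3.60 FPKM under OTX015. The treated P/R libraries lay just below the untreated parental libraries, and no groups overlapped. OTX015 lowered the mean from 4.70 ± 0.107 to 1.02 ± 0.255 FPKM in parental cells, to 0.217 of its level (log2 difference -1.504 ± 0.12, adjusted p = 1.36e-05). In P/R cells it went from 13.7 ± 0.349 to 4.00 ± 0.558 FPKM, or 0.291 of its level (log2 difference -1.56 ± 0.12, adjusted p = 1.67e-05), the 32nd lowest of all genes tested. The ratio between the lines was 2.92 untreated (log2 difference 1.37, adjusted p = 5.14e-05) and 3.92 under OTX015 (1.31, adjusted p = 6.08e-05). The difference between the responses was -0.06 (adjusted p = 0.947).

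MMRN1 encodes multimerin 1, a large soluble protein that binds factor V in alpha granules. In parental cells it measured 2.76 and 3.49 FPKM untreated and 1.55 and 1.58 FPKM under OTX015. In P/R cells it measured 3.48 and 3.51 FPKM untreated and 2.38 and 2.44 FPKM under OTX015. The untreated groups of the 2 lines overlapped, and every treated library lay below every untreated one. OTX015 lowered it in parental cells (log2 difference -0.68 ± 0.11, adjusted p = 0.000907) and in P/R cells (-0.40 ± 0.11, adjusted p = 0.0172). The latter call was lost without any 1 of the 4 P/R libraries (adjusted p from 0.0555 to 0.0725). The untreated lines differed by 0.13 (adjusted p = 0.453). The treated lines differed by 0.41 (adjusted p = 0.0262), and that call was lost without any 1 of the 4 treated libraries (adjusted p from 0.0860 to 0.104).

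VWF encodes von Willebrand factor, the multimeric protein that tethers platelets to injured vessel walls and is made by endothelial cells as well as megakaryocytes. It was listed at 0 in 4 of the 8 libraries and at no more than 0.0151 FPKM in the others, the highest being an untreated P/R library. Its transcript was thus at or near 0 in all 4 groups, and no fold is given.

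The windows of SELP and THBS1 are shown because both genes were higher in P/R cells and fell under OTX015. SELP lies on the minus strand at chr1:169630125-169630374, and THBS1 on the plus strand at chr15:39580829-39581078, with the capitals as above.
SELP: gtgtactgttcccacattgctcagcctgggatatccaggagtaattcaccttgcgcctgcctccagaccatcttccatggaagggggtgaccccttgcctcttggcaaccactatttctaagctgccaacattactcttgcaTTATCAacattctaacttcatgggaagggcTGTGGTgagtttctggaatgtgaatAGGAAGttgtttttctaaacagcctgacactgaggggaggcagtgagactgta
THBS1: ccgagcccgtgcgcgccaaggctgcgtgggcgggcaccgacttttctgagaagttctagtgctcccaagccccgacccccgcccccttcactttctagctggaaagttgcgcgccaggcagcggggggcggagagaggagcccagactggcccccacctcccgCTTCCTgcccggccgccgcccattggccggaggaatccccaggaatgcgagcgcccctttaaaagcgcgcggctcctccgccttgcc
The SELP window held 1 match each to the GATA, RUNX and ETS motifs. The THBS1 window, with 69.6% G and C against 48.4% for SELP, held 1 ETS match only.

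**Figure D3:**
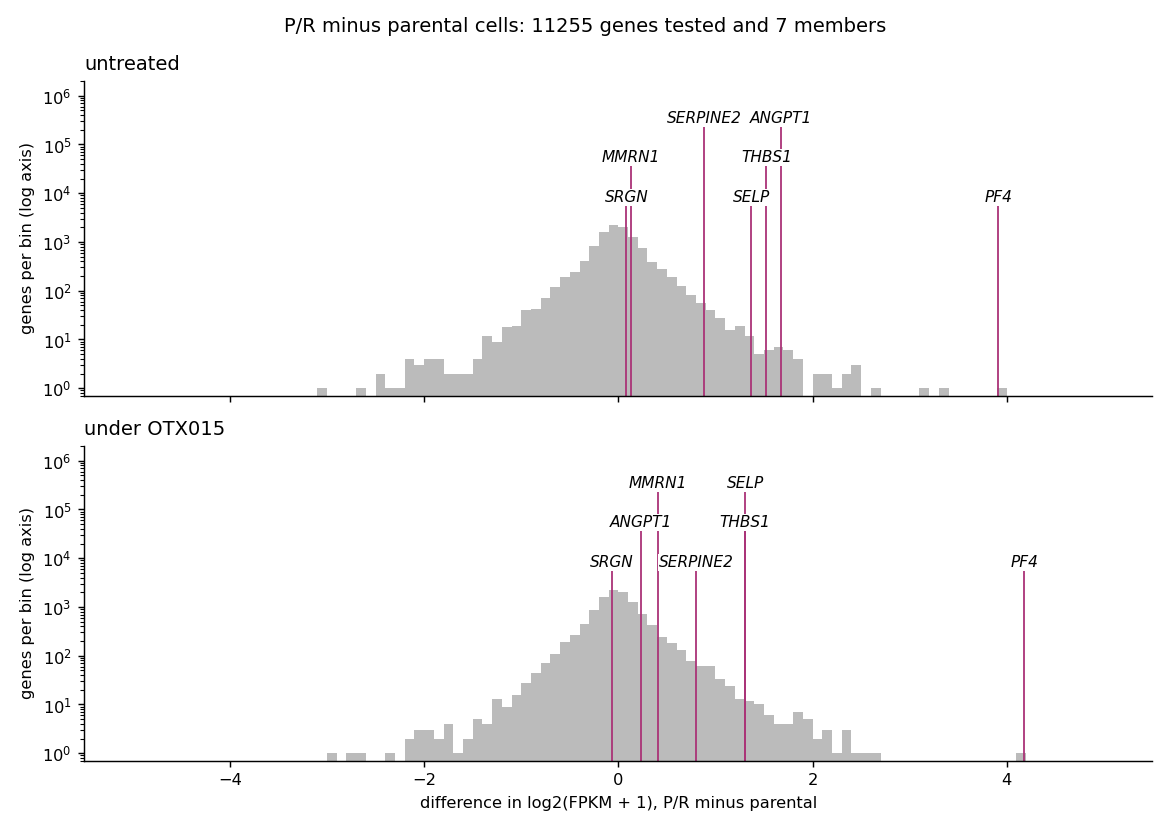
Difference between the lines in log2(FPKM + 1), P/R minus parental (horizontal axis), for the 11255 genes tested as grey bars (genes per bin, log axis) and for 7 granule and secreted protein genes as vertical lines, untreated above and under OTX015 below. The height of a line only separates the labels. PF4 stands at 3.91 and 4.18, beyond every other gene, and ANGPT1 moves from 1.67 untreated to 0.23 under OTX015.

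ANGPT1 encodes angiopoietin 1, a secreted ligand of the receptor TEK (TIE2) that megakaryocytes and platelets store. It measured 1.76 and 1.90 FPKM in untreated parental cells and 0.185 and 0.102 FPKM under OTX015. The P/R libraries measured 7.52 and 8.53 FPKM untreated and 0.537 and 0.167 FPKM under OTX015. The untreated lines were far apart, whereas the treated libraries were all below 1 FPKM and overlapped between the lines. ANGPT1 was thus tested only through its untreated libraries, and the filter favoured a fall under OTX015. Treated means were 0.0782 of the untreated mean in parental cells and 0.0439 in P/R cells, that is 12.8-fold and 22.8-fold lower. The P/R value was 48.2-fold without treated replicate 1 and 14.9-fold without treated replicate 2. The log2 differences were -1.31 ± 0.14 (adjusted p = 8.68e-05) and -2.75 ± 0.14 (adjusted p = 2.64e-06), the latter the third lowest of all genes tested. The untreated lines differed by a ratio of 4.38 (log2 difference 1.67, adjusted p = 5.08e-05), and the treated lines by 0.23 on the log2 scale (adjusted p = 0.294).

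The difference between the 2 ANGPT1 responses was -1.44 ± 0.20 on the log2 scale (unadjusted p = 5.34e-05, adjusted p = 0.0557). Whether it passed depended on the pseudocount. With a pseudocount of 5 in place of 1 it was -0.87 (adjusted p = 0.00547), and with 0.1 its adjusted p was 0.498. TEK itself was low, at 1.14 ± 0.122 FPKM in untreated parental cells and 1.35 ± 0.0956 in untreated P/R cells. TIE1, the partner receptor of TEK, was at 78.5 ± 0.315 and 79.6 ± 1.09 FPKM in the same groups and did not pass in any comparison. ANGPT2 and ANGPT4, the related ligands, had group means of at most 0.0940 FPKM.

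SERPINE2 encodes protease nexin 1, a serine protease inhibitor that platelets store and that blocks thrombin. It was the 1 tested gene that OTX015 raised. In parental cells it measured 1.61 and 1.81 FPKM untreated and 4.49 and 6.29 FPKM under OTX015. In P/R cells it measured 3.39 and 4.71 FPKM untreated and 10.5 and 9.56 FPKM under OTX015. The lowest values were those of untreated parental cells and the highest those of treated P/R cells, and untreated P/R cells overlapped treated parental cells. The rise was 3.15-fold in parental cells (log2 difference 1.22 ± 0.16, adjusted p = 0.000246) and 2.48-fold in P/R cells (1.14 ± 0.16, adjusted p = 0.000471). P/R cells were 2.36-fold higher untreated (log2 difference 0.88, adjusted p = 0.00348) and 1.86-fold higher under OTX015 (0.80, adjusted p = 0.00582).

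The first of 2 SERPINE2 start windows is shown because this gene moved against the others under OTX015. It lies on the minus strand at chr2:224031479-224031728.
SERPINE2: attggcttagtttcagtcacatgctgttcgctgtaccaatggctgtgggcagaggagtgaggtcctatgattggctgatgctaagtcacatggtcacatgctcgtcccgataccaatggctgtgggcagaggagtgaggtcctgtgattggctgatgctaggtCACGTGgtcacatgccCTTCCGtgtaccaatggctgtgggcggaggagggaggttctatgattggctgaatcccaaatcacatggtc
It held 1 E-box match and 1 ETS match, and neither a GATA nor a RUNX match, and the second start held no match.

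SRGN, the gene of the core protein serglycin, varied least among the 7 tested genes. It measured 19.6 and 19.5 FPKM in untreated parental cells, 20.3 and 19.0 FPKM in treated parental cells, 20.7 and 20.9 FPKM in untreated P/R cells and 18.3 and 19.1 FPKM in treated P/R cells. The groups overlapped in part, and no comparison passed. The log2 differences were 0.01 (adjusted p = 0.940) and -0.15 (adjusted p = 0.101) for OTX015 in parental and P/R cells, and 0.08 (adjusted p = 0.414) and -0.07 (adjusted p = 0.493) between the lines untreated and treated.

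**Figure D4:**
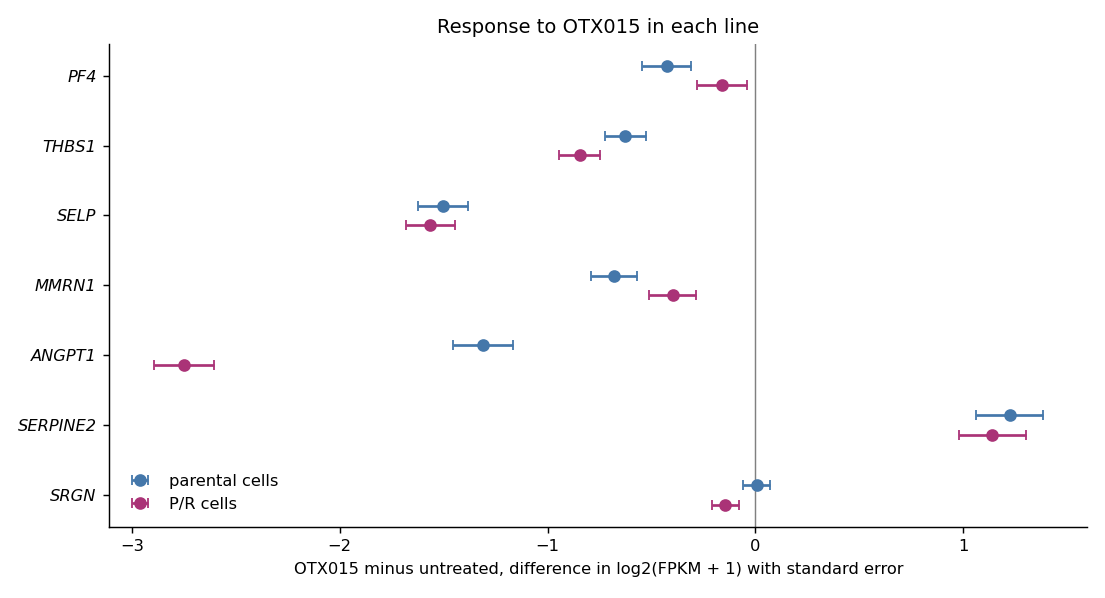
Difference in log2(FPKM + 1) between OTX015 and untreated libraries (horizontal axis, points with standard errors) for the 7 tested genes in parental and P/R cells. SELP lies at -1.504 and -1.56 in the 2 lines, ANGPT1 at -1.31 and -2.75, SERPINE2 at 1.22 and 1.14, and SRGN next to 0.

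For 6 of the genes the most similar profiles among the tested genes were sought, as the smallest root mean square difference between centred log2(FPKM + 1) profiles over the 8 libraries. The nearest genes to PF4 were NNMT and KRT18, at 0.671 and 0.829, where the centred profile of PF4 itself had a root mean square of 2.03. KRT18, which encodes keratin 18, went from 15.03 ± 1.83 to 75.0 ± 0.845 FPKM between untreated parental and P/R cells. THBS1 was nearest to RAB27B (0.114) and CR1L (0.137). SELP was nearest to TMC8 (0.146) and GPR158 (0.161), and MMRN1 to PLEKHA2 (0.0545) and RAB38 (0.0614). SERPINE2 was nearest to TOM1L2 (0.188) and PTMS (0.193), whose means were also higher in P/R cells and higher under OTX015. ANGPT1 was nearest to TGM5 (0.413) and NOSTRIN (0.424). These are descriptions over 8 libraries, and small distances are usual for a gene that varies little.

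Most tested receptors of these proteins fell under OTX015. Of 17 listed receptor genes 11 were tested, and in each line 7 fell and 1 rose (median log2 difference -0.31 in parental and -0.46 in P/R cells, against 0.02 and 0.01 over all genes), where 24.7% of all genes fell in parental and 21.8% in P/R cells. TEK is among the falls in both lines but reached 1 FPKM in untreated libraries only, so its direction was set by the filter and these counts are a description. SELPLG, the gene of PSGL-1, to which P-selectin binds, fell from 11.4 ± 0.382 to 4.32 ± 0.0633 FPKM in parental cells (log2 difference -1.21, adjusted p = 7.2e-06) and, among P/R libraries, from 9.70 ± 0.473 to 3.76 ± 0.129 FPKM (-1.17, adjusted p = 1.33e-05). SELPLG did not pass between the untreated lines (log2 difference -0.21, adjusted p = 0.116). CD36, a thrombospondin receptor, fell from 55.5 ± 4.56 to 24.7 ± 3.07 FPKM in parental cells (adjusted p = 3.64e-05) and, among P/R libraries, from 56.4 ± 2.69 to 29.9 ± 4.12 FPKM (adjusted p = 0.000199). CD47, another thrombospondin receptor, did not pass in any comparison. ITGAV, the alpha V integrin subunit, was the 1 that rose, by 0.53 in parental cells (adjusted p = 0.0115) and by 0.49 in P/R cells (adjusted p = 0.0182). Its call in parental cells was lost without untreated replicate 1 or treated replicate 2 (adjusted p = 0.0810 and 0.0820), and its call in P/R cells without untreated replicate 1, untreated replicate 2 or treated replicate 2 (0.0611, 0.0747 and 0.110). Of the 7 falls, 5 held in parental cells and 6 in P/R cells with each library left out in turn, the exceptions being GP1BB and TEK in parental and TEK in P/R cells. The chemokine receptors CXCR1, CXCR2 and CXCR3 and the scavenger receptor LRP1 had group means under 0.1 FPKM.

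Between the untreated lines 4 of the 11 receptors were higher in P/R cells and 0 were lower (11.7% and 11.9% of all genes), namely GP1BA, GP1BB, GP9 and LRP8, and all but GP1BB held with each library left out in turn (GP1BB adjusted p = 0.0515 without P/R untreated replicate 2). GP1BA, GP1BB and GP9 encode subunits of the glycoprotein Ib complex, the platelet receptor for von Willebrand factor. GP9 measured 107 ± 2.76 FPKM in untreated parental cells and 260.0 ± 20.5 in untreated P/R cells (log2 difference 1.27, adjusted p = 1.06e-05). Under OTX015 it fell to 38.2 ± 1.69 FPKM in parental cells (-1.46, adjusted p = 2.46e-06) and to 125 ± 16.0 FPKM in P/R cells (-1.06, adjusted p = 2.32e-05). Over the 8 libraries GP9 ran from 36.99 to 274 FPKM, GP1BA from 12.6 to 70.7 and GP1BB from 5.38 to 11.7, in libraries in which VWF was at or near 0. Among 11 tested genes that fold, cut or glycosylate von Willebrand factor and other secreted proteins, 9 fell under OTX015 in each line (24.7% and 21.8% of all genes) and 0 rose, and 7 of these calls in parental cells and 8 in P/R cells held with each library left out in turn (the exceptions were FURIN and P4HB, and ABO). The list was led by HSPA5, the chaperone BiP, which fell from 261.5 ± 3.63 to 66.7 ± 0.325 FPKM in parental cells (adjusted p = 6.37e-08) and, among P/R libraries, from 268.5 ± 7.49 to 78.0 ± 5.60 FPKM (adjusted p = 1.01e-07). Between the untreated lines 1 of these 11 was higher, ST3GAL4, a sialyltransferase.

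Other granule cargo did not move in 1 direction. Of 29 listed genes 12 were tested, and in untreated P/R cells 4 were higher (PF4V1, VEGFA, CXCL3 and TFPI), 3 were lower (SPARC, TIMP1 and CLU) and 5 did not pass, where 11.7% of all genes were higher and 11.9% lower. PF4V1 was tested only through its P/R libraries. The calls of TFPI, SPARC and TIMP1 did not hold with each library left out in turn, which left 3 of the 4 higher and 1 of the 3 lower. The 3 lower became 1 without parental untreated replicate 2 or P/R untreated replicate 1 and 2 without any other untreated library or either treated parental library, and the 4 higher became 6 without either treated P/R library. VEGFA, the gene of vascular endothelial growth factor A, went from 8.22 ± 0.0721 to 20.6 ± 0.629 FPKM (log2 difference 1.23, adjusted p = 8.01e-06). CLU, the gene of the chaperone clusterin, fell from 92.6 ± 0.407 to 55.7 ± 8.33 FPKM (-0.73, adjusted p = 0.000269). Under OTX015 3 rose and 4 fell in parental cells and 4 rose and 4 fell in P/R cells, out of 12, against 25.7% and 24.7% of all genes in parental and 22.5% and 21.8% in P/R cells. The 3 rises in parental cells became 2 without any 1 parental library, CLU being lost. TGFB1, the gene of transforming growth factor beta 1, rose from 379.7 ± 6.34 to 892 ± 106 FPKM in parental cells (log2 difference 1.22, adjusted p = 6.41e-06) and, among P/R libraries, from 454 ± 5.24 to 887 ± 98.3 FPKM (0.96, adjusted p = 3.43e-05). TIMP3, a metalloprotease inhibitor, fell from 97.5 ± 0.617 to 44.3 ± 3.56 FPKM in P/R cells (-1.12, adjusted p = 2.67e-06). PDGFA was listed at 0 in every group and PDGFB, F5 and FGB had group means of at most 0.306 FPKM, so several cargo genes of platelets were below 1 FPKM in every group.

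Genes for the granule membrane were mostly higher in P/R cells. Of 9 tested, 6 were higher in untreated P/R cells (CD63, TREML1, TSPAN9, SLC2A3, TMEM163 and ITGB3), 1 was lower (ITGA2B) and 2 did not pass, with a median log2 difference of 0.34 against -0.01 over all genes. Of all genes 11.7% were higher and 11.9% lower. Without any 1 of the 4 untreated libraries 4 of the 6 held (not TSPAN9 and TMEM163), and the ITGA2B call was lost without parental untreated replicate 1 or P/R untreated replicate 2. TREML1, a receptor of the granule membrane, went from 8.92 ± 0.0396 to 15.8 ± 0.460 FPKM (log2 difference 0.76, adjusted p = 0.000805), and OTX015 lowered it in both lines (adjusted p = 0.000958 in parental and 0.00633 in P/R cells). Under OTX015 2 of the 9 rose and 2 fell in each line, a share near that of all genes (25.7% rose and 24.7% fell in parental cells, 22.5% and 21.8% in P/R cells). Of the 2 rises, LAMP2 in parental cells was lost without untreated replicate 1, untreated replicate 2 or treated replicate 2, and LAMP1 in P/R cells without any 1 P/R library.

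Of 25 tested genes for granule formation, 3 were higher in untreated P/R cells (GFI1B, RAB27B and RAB32), 0 were lower and 22 did not pass. The higher share is near that of all genes, of which 11.7% were higher and 11.9% lower. RAB27B, a small GTPase for granule docking, went from 2.13 ± 0.0305 to 8.00 ± 1.18 FPKM (log2 difference 1.52, adjusted p = 0.000133). Under OTX015 7 rose, 7 fell and 11 did not pass in each line, shares near those of all genes (25.7% rose and 24.7% fell in parental cells, 22.5% and 21.8% in P/R cells). Among P/R libraries the 7 rises became 4 without untreated replicate 2 and 5 without treated replicate 1 (AP3D1, BLOC1S3 and LYST were lost in both), and the 7 falls became 4 without untreated replicate 1 (NBEAL2, RAB38 and HPS4). SLC17A9 and SLC18A2, transporters that load dense granules with nucleotides and with serotonin, fell in both lines. SLC17A9 went from 19.6 ± 2.08 to 7.70 ± 0.742 FPKM in parental cells (adjusted p = 1.69e-05) and, among P/R libraries, from 16.8 ± 1.55 to 7.96 ± 0.0925 FPKM (adjusted p = 8.44e-05).

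Of 22 genes for granule release, 8 were higher in untreated P/R cells and 0 were lower, where 11.7% of all genes were higher and 11.9% lower. The 8 became 5 without parental untreated replicate 1, parental untreated replicate 2 or P/R untreated replicate 2 (SNAP23, STX11 and STXBP2 were lost). They included VAMP2, a vesicle SNARE, at 12.5 ± 0.00219 FPKM in untreated parental cells and 22.9 ± 0.992 in untreated P/R cells (log2 difference 0.82, adjusted p = 6.58e-05), and UNC13D, a granule priming factor, at 149 ± 8.87 and 189 ± 4.30 FPKM (0.35, adjusted p = 0.00212). Under OTX015 7 rose and 7 fell in parental cells (25.7% and 24.7% of all genes), and 1 rose and 4 fell in P/R cells (22.5% and 21.8%). The 7 parental rises became 4 without untreated replicate 2 or treated replicate 2 (SNAP23, STX12 and RALA were lost), and the 1 rise in P/R cells became 3 without treated replicate 1. SNAP29, a target SNARE, rose from 27.1 ± 1.80 to 49.3 ± 1.54 FPKM in parental cells (adjusted p = 1.16e-05) and, among P/R libraries, from 27.3 ± 1.28 to 48.1 ± 0.315 FPKM (adjusted p = 2.33e-05). The list of enzymes that build the sulphated sugar chains of proteoglycans such as serglycin includes heparan sulphate enzymes. Which of these chains serglycin carries here was not tested. Of the 16 tested enzymes, 1 was higher in untreated P/R cells (CHPF), 0 were lower and 15 did not pass. Without P/R untreated replicate 1, 2 were higher. Under OTX015 6 of these 16 rose and 2 fell in parental cells, and 4 rose and 1 fell in P/R cells, against the same shares of all genes. The 4 rises became 2 without P/R untreated replicate 1 or P/R OTX015 replicate 1 (B4GALT7 and CHPF were lost), and the 2 parental falls became 1, without B3GALT6, when any library but parental untreated replicate 1 or P/R OTX015 replicate 2 was left out. NDST2, a heparan sulphate sulphotransferase, rose from 10.2 ± 0.529 to 18.4 ± 0.275 FPKM in parental cells (adjusted p = 6.98e-05) and, among P/R libraries, from 10.5 ± 0.758 to 15.1 ± 1.06 FPKM (adjusted p = 0.00134).

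Among paralogues of the 9 genes, 6 of 13 were tested. In untreated P/R cells 2 were higher, PF4V1 and MMRN2, and 0 were lower, and under OTX015 2 fell in each line, MMRN2 and EMILIN1. PF4V1 reached 1 FPKM in P/R libraries only and MMRN2 in untreated P/R libraries only, so the filter set their direction between the untreated lines, and that of MMRN2 under OTX015 in P/R cells, and these counts support nothing. Of all genes 11.7% were higher between the untreated lines, and 24.7% and 21.8% fell under OTX015 in parental and P/R cells. The MMRN2 call between the untreated lines was lost without P/R untreated replicate 1 (adjusted p = 0.0660), and its call in parental cells without untreated replicate 1 or treated replicate 2 (0.0852 and 0.0983). EMILIN1, a relative of multimerin, fell from 1.95 ± 0.234 to 0.512 ± 0.195 FPKM in parental cells (adjusted p = 0.000304) and, among P/R libraries, from 2.14 ± 0.192 to 0.988 ± 0.120 FPKM (adjusted p = 0.00326). Its relative EMILIN2 was higher, at 21.5 ± 3.02 FPKM in untreated parental cells, and did not pass in any comparison. THBS2, COMP and SELE, relatives of THBS1 and SELP, had group means of at most 0.0181 FPKM.

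The transcription factors that act on megakaryocyte genes were compared next. Of 19 tested, 7 were higher in untreated P/R cells (FLI1, RUNX1, MEIS1, ETS1, GFI1B, TAL1 and ZFPM1), 3 were lower (GFI1, LDB1 and KLF1) and 9 did not pass, where 11.7% of all genes were higher and 11.9% lower. With each library left out in turn 5 of the 7 and 2 of the 3 held (not ETS1, TAL1 and LDB1, the last lost without parental untreated replicate 1, P/R untreated replicate 1 or P/R untreated replicate 2). MEIS1, a homeobox factor, went from 8.74 ± 0.0209 to 17.4 ± 0.709 FPKM (log2 difference 0.91, adjusted p = 0.000518), and FLI1, an ETS factor, from 135.5 ± 2.09 to 185 ± 0.542 FPKM (0.44, adjusted p = 0.000111). GATA1 was at 335 ± 11.6 and 339.5 ± 1.97 FPKM and did not pass (adjusted p = 0.770), nor did NFE2 (adjusted p = 0.729). Under OTX015 8 of the 19 fell and 5 rose in parental cells, and 10 fell and 2 rose in P/R cells, where 24.7% of all genes fell and 25.7% rose in parental and 21.8% and 22.5% in P/R cells. The 10 falls became 6 without P/R untreated replicate 2 (RUNX1, MEIS1, KLF1 and SRF were lost). The 5 rises became 3 without parental untreated replicate 2 or parental OTX015 replicate 1 (GATA1 and GFI1 were lost), and the 2 rises became 4 without either treated parental library and 3 without P/R OTX015 replicate 2. LMO2, a bridge between GATA and TAL1 factors, fell from 61.1 ± 7 to 14.1 ± 0.584 FPKM in parental cells (log2 difference -2.04, adjusted p = 5.72e-07) and, among P/R libraries, from 69.2 ± 1.91 to 24.7 ± 2.24 FPKM (-1.45, adjusted p = 5.12e-06).

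Markers of cell types were read beside these results, against 11.7% of all genes higher and 11.9% lower in untreated P/R cells and, under OTX015, 24.7% falling and 25.7% rising in parental and 21.8% and 22.5% in P/R cells. Of 8 megakaryocyte markers tested, 7 were higher in untreated P/R cells and 1, ITGA2B, was lower, and 6 of the 7 held with each library left out in turn (not GP1BB). The ITGA2B call did not hold. Most of these markers were already counted above. ITGB3 and ITGA2B are also granule membrane genes, GP9, GP1BA and GP1BB are also receptors, and RAB27B is also a granule formation gene. The summed level of the 8 megakaryocyte markers ran from 585 to 612 FPKM in untreated parental and from 792 to 797 FPKM in untreated P/R libraries. Under OTX015 the sum ran from 497 to 509 FPKM in parental and from 633 to 707 FPKM in P/R libraries, with 6 of 8 falling in parental cells and 5 of 8 in P/R cells. ITGB3, the integrin beta 3 subunit, rose in both lines (log2 difference 0.39 in parental and 0.41 in P/R cells, adjusted p = 0.0002 and 0.000198). Of 7 endothelial markers tested, some of which megakaryocytes share, 5 were higher in untreated P/R cells and 5 fell under OTX015 in each line. Among the 7, TEK and CDH5 reached 1 FPKM in untreated libraries only. The filter thus favoured the fall of TEK and CDH5 under OTX015, and these counts are a description. The sum of all 9 endothelial markers ran from 264 to 274 FPKM in untreated parental and from 447 to 454 FPKM in untreated P/R libraries. This sum was mostly ESAM, which megakaryocytes also express. Under OTX015 it ran from 186 to 187 FPKM in parental and from 359 to 371 FPKM in P/R libraries. Of 9 erythroid markers 0 were higher and 3 were lower in untreated P/R cells, and 3 rose and 3 fell under OTX015 in each line. The 3 lower became 1 without P/R untreated replicate 1 and 2 without any other untreated library, and with 1 library left out the 3 falls became 2 in parental cells (without untreated or treated replicate 2) and 2 in P/R cells (without either untreated library or treated replicate 1). CD68 and LYZ were the only tested monocyte markers, and CD68 was higher in untreated P/R cells. Of 3 tested lymphocyte markers, CD2 and CD79A were lower in untreated P/R cells. The part of these markers in the results on the granule genes was not tested.

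**Figure D5:**
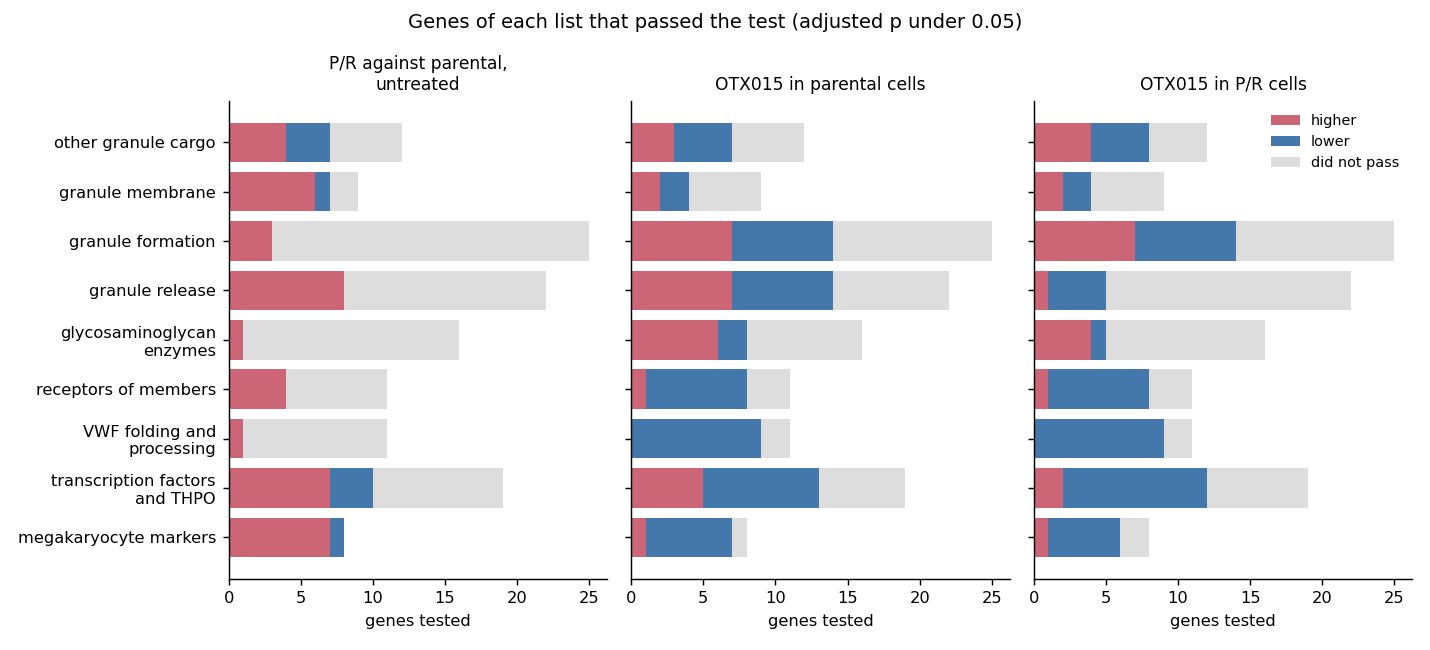
Number of tested genes (horizontal axis) that were higher, lower or did not pass in 9 lists, for P/R against parental untreated cells and for OTX015 in each line. Granule membrane genes and megakaryocyte markers are mostly higher in P/R cells (6 of 9 and 7 of 8), where 11.7% of all genes tested are higher. Some genes are counted in several lists, such as ITGB3 and ITGA2B in both of these. The genes that fold, cut or glycosylate von Willebrand factor and other secreted proteins fall under OTX015 (9 of 11 in each line) or do not pass. Of all genes, 24.7% fall in parental and 21.8% in P/R cells. Not all calls in these lists held with a library left out.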

How the data were processed

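RNA was sequenced in 8 libraries, with 2 biologic replicates in each of 4 groups, and groups were taken from the sample labels. The authors deposited 1 table of 19718 coding genes whose values are taken to be FPKM, since its header names no unit. The submitters' processing notes name TopHat2 2.0, Cufflinks 2.0 and hg19. What each did, with which settings and annotation, whether strand was kept and whether poly(A) RNA was selected was not given in the sources used here. That the authors' FPKM values were quantile normalized is read from the values: once sorted, the values of 2 libraries never differ by more than 0.136% from 1 FPKM upward. A global change in RNA content would thereby be lost, and the sequencing depth behind a value is unknown.

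Members and lists were chosen with earlier results of these data known. All 9 members and 222 of 224 list symbols matched a row, and the other 2 were not analysed here. A few genes first placed in these lists are not reported here and were left out of the list counts. In the deposited table, 28 symbols were bare numbers and were restored through Ensembl identifiers. Symbols on more than 1 row numbered 59, and 1 row of each kept the symbol and was used for members and lists. The other rows stayed among the genes fitted where they passed the filter. The 11255 genes at 1 FPKM or more in 2 or more libraries were fitted as log2(FPKM + 1) with 4 group means in limma 3.58.1 under R 4.3.3 (eBayes with a variance trend, 4 residual and 5.23 prior degrees of freedom). Two-sided p-values of 5 contrasts were adjusted over the tested genes by Benjamini-Hochberg, and 0.05 was the threshold. Folds are ratios of mean FPKM. With 2 against 2 libraries an exact permutation test of single values cannot go below 0.333, so the tests rest on the spread shared across genes. The fit was tested on simulated data.

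Named genes are the 9 members, up to 4 passing members of each list by size of the OTX015 response, the CXC cluster and paralogues at 1 FPKM or more, receptors of members, and the 2 most similar profiles per member whose group means span at least 2-fold. Genes named beside a list's comparison of the lines were picked after their values were seen. Lists cover other alpha-granule cargo, granule membrane, formation and release, glycosaminoglycan enzymes, receptors, von Willebrand factor processing, regulators, the CXC cluster, paralogues and markers of 6 cell types. They are given by counts only, with no test over a list. Some genes stand in several lists, so the counts of different lists are not independent. The alternatives tried were a pseudocount of 0.1 or 5, testing every gene or those with a mean from 5 FPKM upward, dropping the variance trend, centring on medians, fitting the compared groups alone, a replicate block, and leaving each library out in turn. Promoter windows and gene order come from RefSeq on GRCh38.p14.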

Additional observations from a re-analysis of the deposited data

Results flagged for a closer look

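The response to OTX015 differed between the lines for GP6, the gene of the platelet collagen receptor glycoprotein VI, by 1.2 on the log2(FPKM + 1) scale in a test of the difference itself (limma, adjusted p = 0.00412). Parental libraries went from 25.3 ± 0.0122 FPKM untreated to 6.08 ± 0.274 under OTX015, and P/R libraries from 47.76 ± 1.15 to 29.2 ± 1.81 (SD, n = 2). GP1BA, the gene of the glycoprotein Ib subunit that binds von Willebrand factor, also differed in response, by 0.69 (adjusted p = 0.0478). Its level went from 30.6 ± 0.982 to 13.3 ± 0.923 FPKM among parental libraries, and from 69.2 ± 2.08 to 49.9 ± 1.62 among P/R libraries. The GP1BA call was lost without any 1 of the 8 libraries (adjusted p from 0.0921 to 0.224), with the replicate block (0.114), no filter (0.152), no variance trend (0.107) or a pseudocount of 0.1 (0.0521).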

How the results depend on the processing

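Of 543 values of the granule and secreted protein genes under 16 alternatives, 522 kept their direction and side of the threshold, 13 lost their call, 1 gained one and 7 changed sign. For other list genes with a call, 4272 of 4604 values held and 332 lost the call. The sign changes were all of differences that did not pass: the response of SRGN in parental cells without parental OTX015 replicate 1 (-0.040; up to 0.053 without replicate 2), the difference in response of SELP with a pseudocount of 0.1 (0.36), without parental OTX015 replicate 1 (0.068) or P/R OTX015 replicate 2 (0.054; range with a library left out -0.19 to 0.068), and that of SERPINE2 with a pseudocount of 5 (0.11), without parental OTX015 replicate 2 (0.12) or P/R untreated replicate 2 (0.11; range -0.29 to 0.12). With a mean of at least 5 FPKM, 3 rather than 5 of the genes were called for OTX015 in P/R cells, since fewer were tested. With a pseudocount of 5, 1 rather than 0 (ANGPT1) was called for the difference in response. Leaving out a library of a group that is not compared cannot change the size or direction of a difference. Part of the values that held could therefore not have changed sign.

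Over all genes, the calls between the untreated lines were 2647 and ran from 1614 to 2688 with a library left out, lowest without P/R untreated replicate 1 (1614) or 2 (1689). Those between the treated lines were 2747 and ran from 1763 to 2633, lowest without parental OTX015 replicate 1. The 9 calls for the difference in response became 4 with a pseudocount of 0.1, 29 with 5, 4 with no filter, 3 with no variance trend, 2 with the replicate block, and 2 to 8 with a library left out (8 without P/R OTX015 replicate 2, at most 5 without any other). The cause was not tested. Whether libraries with the same replicate number were prepared together is not given in the labels. The correlations of replicate deviations between groups ran from -0.12 to 0.104, so no replicate effect common to the groups was seen. The replicate block changed no call of the granule and secreted protein genes. Unknown depth limits statements on PPBP, VWF and treated ANGPT1, which are near 0.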
